A study of Saccharomyces cerevisiae with 25 samples.

Results

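The 33 genes described here carry glucose through the budding yeast cell. They are the glycolytic enzymes from HXK1 to CDC19 and PYK2, the enzymes that turn pyruvate into ethanol or acetate (PDC1, PDC5, PDC6, ADH1, ADH2, ALD4 and ALD6), both cytosolic glycerol-3-phosphate dehydrogenases (GPD1 and GPD2) and the hexose transporters HXT1 to HXT7. They are a list of open reading frames (ORFs) drawn up by function, and make up 33 of the 6696 ORFs in the count tables. All 33 passed the filter on low counts, which asked for 10 or more counts per library on average in both assays.

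Saccharomyces cerevisiae ferments glucose to ethanol even when oxygen is present. Sugar enters through facilitative transporters of the HXT family, whose members differ in their affinity for glucose and are switched on and off by the outside glucose level. Several glycolytic steps are served by paralogous isozymes, of which one is abundant on glucose and another is kept low by glucose repression or raised under stress.

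Tunicamycin (Tm) blocks N-linked glycosylation and so causes misfolded proteins to build up in the endoplasmic reticulum, which calls up the unfolded protein response (UPR). The study asked how this response alters translation and whether monoubiquitination of the ribosomal protein eS7A is part of it. Ribosome footprints and RNA-seq reads were counted per ORF in 25 libraries, from growing cells harvested 0, 1, 2 or 4 h after 1 µg/mL Tm was added. The eS7A-4KR strain (MATa ade2 his3 leu2 trp1 ura3 can1, with RPS7a::HisMX6 and RPS7b::natNT2) lives on pRS315-RPS7a-4KR-3HA, a plasmid copy of the tagged gene in which the lysines that the ligase Not4 ubiquitinates are arginines. The eS7A-WT strain has the same disruptions but carries pRS315-RPS7a-3HA, the tagged gene with its lysines. Both were sampled at 4 h and at 0 h. W303-1a, an unmodified strain with the same markers and both chromosomal eS7 genes, was sampled at 0, 1, 2 and 4 h.

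Each eS7A group had 2 libraries per assay, apart from the RNA-seq of eS7A-WT at 0 h, where 1 library was analysed here. W303 had 2 per assay at 0 h and 1 per assay at each later time, so changes in W303 take their error from the untreated replicates. The study describes its replicates as independent biological ones. Totals ran between 3423907 and 33858553 footprints and between 28309641 and 49246452 RNA-seq reads. RPS7B reads were 0.248 to 0.435% of RPS7A reads in the RNA-seq of the eS7A strains, against 17.9 to 26.8% in W303 (in footprints 6.78 to 12.6%, against 33.9 to 50.5%). All 8 UPR target genes looked up rose in each of the 5 treated conditions.

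Levels are given as cpm, the count of an ORF over the size of its library, scaled by the trimmed mean of M-values (TMM) within each assay. A change is a log2 difference with its standard error (SE) from edgeR's quasi-likelihood test, with p-values adjusted by the Benjamini-Hochberg method over all ORFs in the fit. It was called when the adjusted p was under 0.01. Translation efficiency (TE) is the footprint level over the mRNA level, and a TE change is the footprint change minus the mRNA change. Every change is relative to the typical ORF of a library, and a drop in the RNA of the whole cell would not be seen in it.

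The 33 genes are among the most heavily expressed in the cell. They took 7.35 to 15.1% of RNA-seq reads and 16.1 to 24.2% of footprints in a library, and 7 or 8 of the 10 ORFs with most footprints were among them in every footprint library. Per codon, TDH3, the main glyceraldehyde-3-phosphate dehydrogenase, ranked 1 of 5526 ORFs in both mRNA and footprints in W303 at 0 h. PDC6, a minor pyruvate decarboxylase, ranked 5505 in mRNA in the same cells. In W303 at 0 h all 33 had a TE above that of the median ORF, with a median log2 excess of 0.72. The range ran between 0.14 and 2.35, and TDH1 at 2.35 stood at the 99.7th percentile of the 5526 ORFs, followed by HXT5 at 1.99. The TE of TDH1 is uncertain, because how reads shared with close paralogs were counted is not given. After 4 h of Tm 30 of the 33 were above the median ORF in W303.

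In W303 many of the abundant enzymes had lower mRNA after 4 h of Tm, and a handful of isozymes had higher mRNA. At 1 h 15 of the 33 mRNAs were called, 4 higher and 11 lower, where 36.8% of all 5392 ORFs in the fit were called. At 2 h 21 were called, 9 higher and 12 lower, against 69.7% of all ORFs. At 4 h 28 were called, 7 higher and 21 lower, against 73.6% of all ORFs, of which 37.6% were higher and 36% lower. The median log2 mRNA change of the 33 was -0.99 at 4 h, against 0.04 for all ORFs. The size of this shift depends on scaling. By total counts, without TMM, the median of all ORFs itself moved to 0.73, and 12 of the 33 were called higher and 14 lower at 4 h (17 and 10 at 2 h). At 1 h the fit on all 25 libraries called 8 of the 33, and the fit with no filter called 9.

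In both eS7A strains the number of these mRNAs called after Tm was close to the share over all ORFs in the joint fit of both assays. With RNA-seq fitted alone it was above that share. In eS7A-4KR at 4 h 9 of the 33 were called, 8 higher and 1 lower, where 30.9% of the 5558 ORFs were called. In eS7A-WT 22 were called, 8 higher and 14 lower, where 59.7% were called. The median log2 mRNA change of the 33 was 0.04 in eS7A-4KR and -0.90 in eS7A-WT, against 0.00 and 0.04 for all ORFs. The footprint replicates of the eS7A strains differ among themselves for these genes. In all 4 eS7A groups replicate 2 lay above replicate 1, by a median ratio of 1.23 to 1.39 over the 33 genes, while the RNA-seq replicates had median ratios of 0.949 to 1.08. The joint fit takes 1 spread for both assays of a gene, and with RNA-seq fitted alone the calls in eS7A-4KR were 26 of 33 (12 higher, 14 lower, with 50.9% of all ORFs called). In eS7A-WT they were 32 of 33 (9 higher, 23 lower, with 70.2% called). By total counts the split in eS7A-4KR was 12 higher and 5 lower, and a block by replicate number inside each assay gave 12 and 13.

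**Figure D1:**
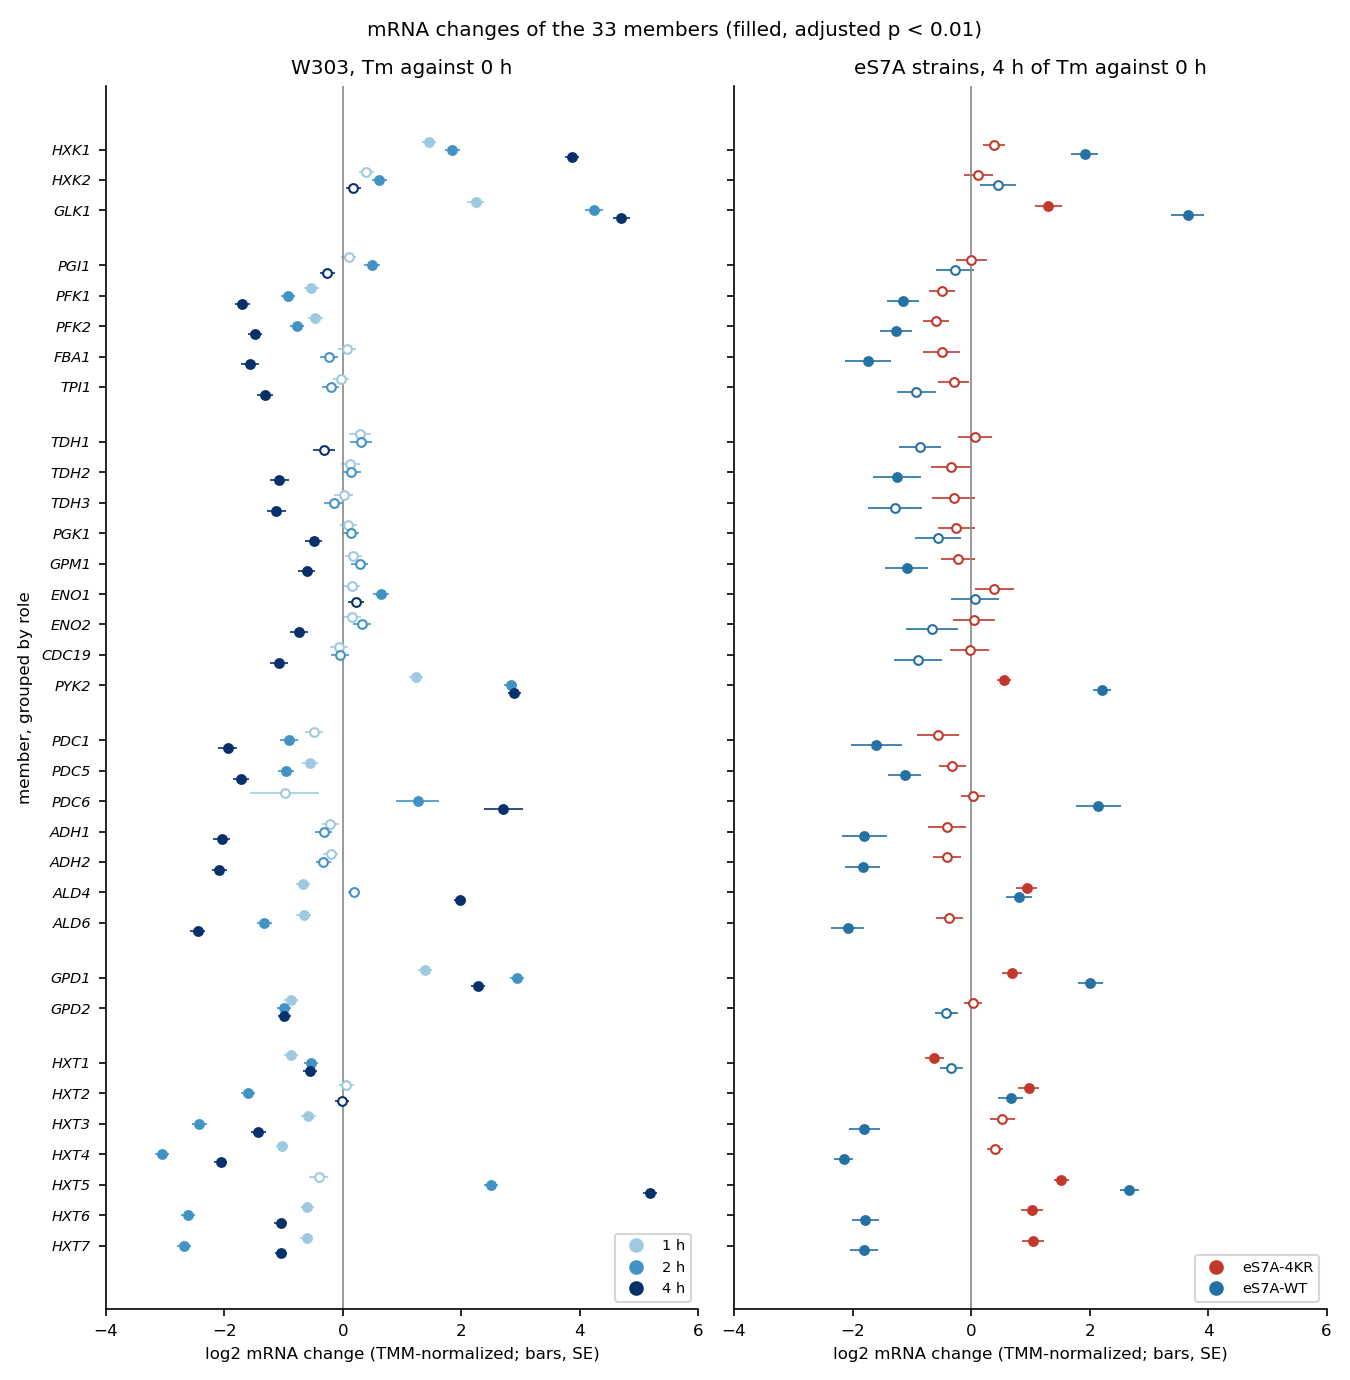
log2 mRNA change with Tm for each of the 33 genes, grouped by role, in W303 at 1, 2 and 4 h (left) and in eS7A-4KR and eS7A-WT at 4 h (right), each against 0 h of its strain. Bars are SE and filled points passed the adjusted p of 0.01. In W303 at 4 h the points run between -2.45 for ALD6 and 5.18 for HXT5, and in eS7A-4KR between -0.62 for HXT1 and 1.52 for HXT5.

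Of the 3 enzymes that phosphorylate glucose, HXK1 and GLK1 rose steeply while HXK2, the predominant hexokinase on glucose and itself part of the glucose repression machinery, had no called change at 4 h. GLK1, the glucokinase (YCL040W, chromosome III, 50838-52340 in assembly R64), had 53.8 and 68.3 cpm in the W303 RNA-seq at 0 h, then 293, 1158 and 1561 at 1, 2 and 4 h. Each treated library lay above both untreated ones, and the log2 change at 4 h was 4.70 ± 0.15 (SE, adjusted p = 1.27e-13). HXK1, hexokinase isoenzyme I (YFR053C, chromosome VI, 253592-255049), had 24.5 and 28 cpm at 0 h, then 72.8, 95 and 377 at 1, 2 and 4 h, a change of 3.87 ± 0.12 at 4 h (adjusted p = 7.54e-14). HXK2 had 1281 and 1325 cpm at 0 h and 1446 at 4 h, a change of 0.18 that was not called, with a call only at 2 h (0.62).

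In eS7A-4KR, GLK1 had 1555 and 1349 cpm in the RNA-seq at 4 h, against 610 and 616 at 0 h. In eS7A-WT it had 1495 and 1585 cpm at 4 h, against 126 at 0 h. The strains thus had overlapping levels at 4 h, and the gap between them was in the untreated cells. The changes were 1.30 ± 0.23 in eS7A-4KR (adjusted p = 7.52e-05) and 3.66 ± 0.28 in eS7A-WT (adjusted p = 6.44e-10). HXK1 had 495 and 480 cpm at 4 h in eS7A-4KR, against 389 and 388 at 0 h. It had 223 and 234 cpm at 4 h in eS7A-WT, against 62.5 at 0 h. All 4 eS7A-4KR libraries were above all 3 of eS7A-WT. In the joint fit the change with Tm was called in eS7A-WT and not in eS7A-4KR (0.39 ± 0.19 in eS7A-4KR, adjusted p = 0.0938, and 1.92 ± 0.23 in eS7A-WT, adjusted p = 2.51e-07). With RNA-seq fitted alone it was called higher in eS7A-4KR too (0.37, against 1.87 in eS7A-WT).

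As shares of the RNA-seq reads of the 3 hexokinase genes, HXK2 made up 94.2 and 93.2% in W303 at 0 h, then 82.6, 61.6 and 42.7% at 1, 2 and 4 h. GLK1 took 3.96 and 4.81% at 0 h and 46.1% at 4 h, and so became the most counted of the set. In eS7A-4KR the GLK1 share was 53.8 and 50% at 4 h, against 33.8 and 33.6% at 0 h. In eS7A-WT it was 43.2 and 44.3% at 4 h, against 8.33% at 0 h. In footprints GLK1 took 36.4% in W303 at 4 h, against 3.16 and 3.59% at 0 h, and HXK2 still led there with 50.2%. The Wilson 95% intervals of these shares, which cover counting error only, reach at most 0.6 percentage points either side.

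**Figure D2:**
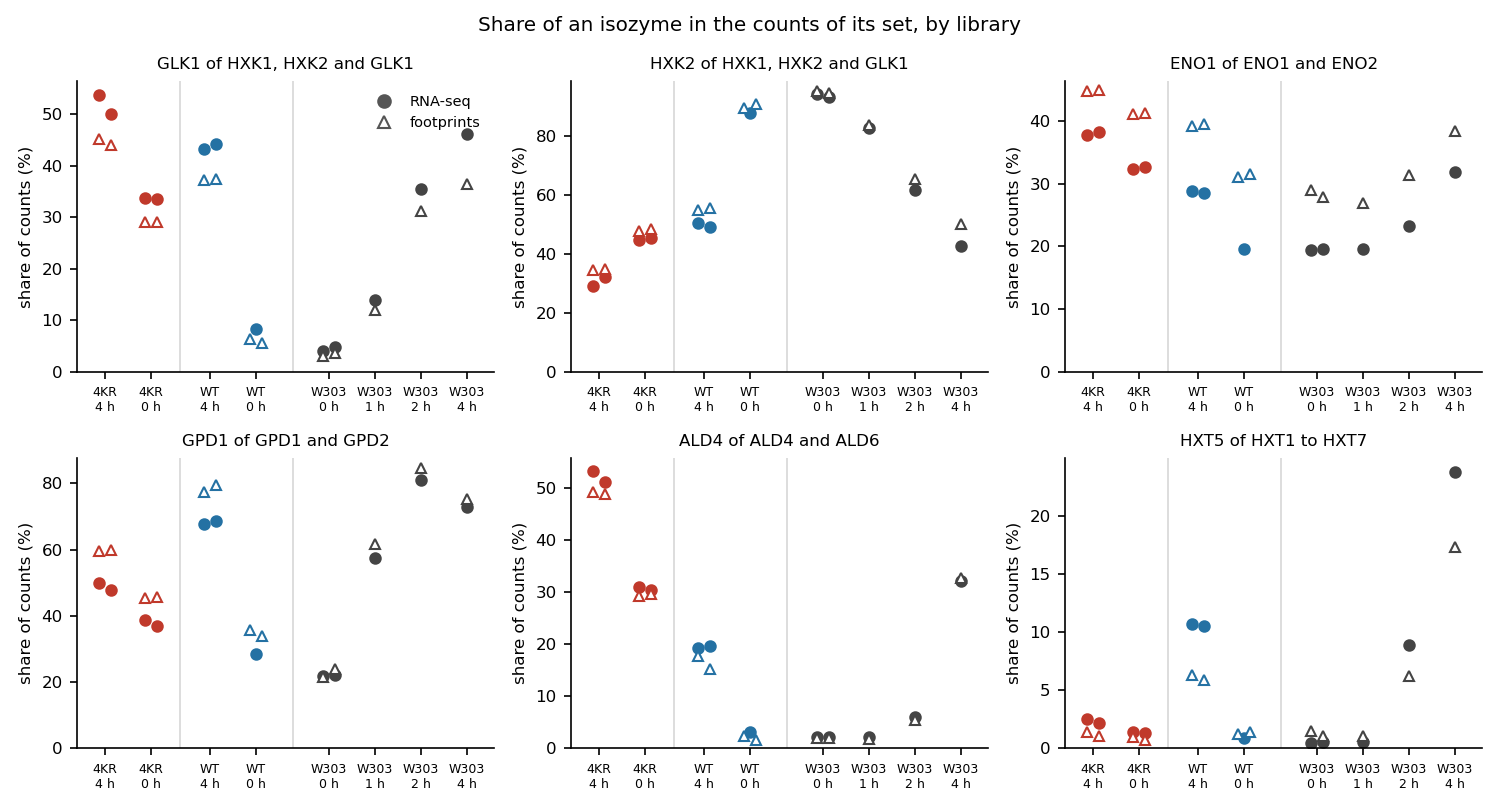
Share of the counts of an isozyme set that falls on one gene (vertical axis, %), with 1 point per library, for RNA-seq (circles) and footprints (triangles), by strain and hours of Tm. In the RNA-seq of W303 the GLK1 share was 46.1% at 4 h, against 3.96 and 4.81% at 0 h, and the GPD1 share peaked at 81.1% at 2 h.

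Of the 5 genes for the steps that prepare and split the hexose, 4 were lower in W303 at 4 h and the other was not called. Over all ORFs 36% were called lower there. PFK1 and PFK2 encode the subunits of phosphofructokinase, the main allosteric control point of glycolysis. PFK1 had 1724 and 1698 cpm in the W303 RNA-seq at 0 h, then 1201, 903 and 518.3 at 1, 2 and 4 h. PFK2 had 1644 and 1665 cpm at 0 h and 1214, 971.6 and 581.7 at the later times. Each later library lay below the one before it, with a log2 change at 4 h of -1.70 ± 0.12 for PFK1 (adjusted p = 7e-09) and -1.48 for PFK2. FBA1, the aldolase, and TPI1, triosephosphate isomerase, were not called at 1 or 2 h and fell at 4 h (-1.57 and -1.31). PGI1, phosphoglucose isomerase, was called higher at 2 h (0.49) and was at -0.26 at 4 h, not called. The calls of PFK1 and PFK2 at 1 h (-0.53 and -0.47) ended when either footprint library of W303 at 0 h was left out, at unchanged size.

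In eS7A-4KR the same 5 genes had no called mRNA change in the joint fit, where 30.9% of all ORFs were called. Their log2 values lay between -0.60 and 0.01. In eS7A-WT PFK1 (-1.15 ± 0.27), PFK2 (-1.27 ± 0.27) and FBA1 (-1.73 ± 0.39) fell, where 29.1% of all ORFs were called lower. FBA1 had 5344 and 5494 cpm in the RNA-seq of eS7A-4KR at 4 h, against 7984 and 7967 at 0 h. In eS7A-WT it had 4900 and 5301 cpm at 4 h, against 17570 at 0 h. All 4 h libraries lay below the 0 h libraries of their strain, and the difference between the strains' responses was 1.24 ± 0.50 (adjusted p = 0.0453), not called. With RNA-seq fitted alone PFK1 (-0.51), PFK2 (-0.61), FBA1 (-0.51) and TPI1 (-0.31) were called lower in eS7A-4KR, and the difference for FBA1 was called (1.27). In eS7A-WT that fit called all 5 lower, at -1.20, -1.32, -1.79 and -0.98 in the same order and -0.32 for PGI1. In footprints PFK2 was called in eS7A-4KR too (-0.92 ± 0.22, adjusted p = 0.00141), where 38% of all ORFs were called.

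From glyceraldehyde 3-phosphate to pyruvate the abundant enzymes fell late. In W303 none of the 9 genes of this stretch was called lower at 1 or 2 h, where 18.5 and 33.8% of all ORFs were. At 4 h 6 were lower and 1 higher, where 36% of all ORFs were lower and 37.6% higher. TDH3 had 21160 and 24410 cpm in the RNA-seq at 0 h, then 23300, 20510 and 10260 at 1, 2 and 4 h. CDC19, the main pyruvate kinase, had 9924 and 10620 cpm at 0 h, then 9936, 9947 and 4791 at 1, 2 and 4 h. For both, the 4 h library alone stood apart, with log2 changes of -1.13 ± 0.16 (adjusted p = 1.54e-05) and -1.07. At 4 h the change was -1.07 for TDH2, another glyceraldehyde-3-phosphate dehydrogenase, -0.73 for ENO2, the enolase made on glucose, -0.61 for GPM1, phosphoglycerate mutase, and -0.49 for PGK1, phosphoglycerate kinase. The last 3 were no longer called when either footprint library of W303 at 0 h was left out (-0.74, -0.62 and -0.50), nor was PGK1 without replicate 2 of the untreated RNA-seq (-0.40). By total counts GPM1 and PGK1 had changes of 0.0905 and 0.21. In the eS7A strains none of the 9 was called lower in eS7A-4KR in the joint fit, with TDH3 at -0.29, while in eS7A-WT TDH2 (-1.25 ± 0.41) and GPM1 (-1.09 ± 0.36) were called lower. With RNA-seq fitted alone TDH2 (-0.36), TDH3 (-0.31), PGK1 (-0.26) and GPM1 (-0.23) were called lower in eS7A-4KR, where 50.9% of all ORFs were called. In eS7A-WT, where 70.2% were called, that fit gave larger falls. They were TDH3 (-1.34), TDH2 (-1.30), GPM1 (-1.14), CDC19 (-0.96), TDH1 (-0.91), ENO2 (-0.71) and PGK1 (-0.61), all called. The joint-fit calls of TDH2 and GPM1 in eS7A-WT ended without any one of 6 eS7A RNA-seq libraries (-1.32 to -1.21 and -1.16 to -1.05).

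Among the minor isozymes of the same stretch PYK2 went the other way. PYK2, a pyruvate kinase that is repressed by glucose, had 11.3 and 10.9 cpm in the RNA-seq of W303 at 0 h, then 26.6, 79.5 and 80.8 at 1, 2 and 4 h. Its log2 change was 2.89 ± 0.11 at 4 h (adjusted p = 4.94e-13). In eS7A-4KR it had 95.3 and 84.7 cpm at 4 h, against 63.7 and 63.9 at 0 h, and in eS7A-WT 80.4 and 91 at 4 h, against 19.2 at 0 h. The strains overlapped at 4 h, and the changes were 0.56 ± 0.11 (adjusted p = 0.000432) and 2.21 ± 0.15 (adjusted p = 7.05e-12). The call in eS7A-4KR ended without replicate 1 of its RNA-seq at 4 h (0.46). At its highest, PYK2 made up 1.66% of the reads of both pyruvate kinase genes. TDH1, a minor glyceraldehyde-3-phosphate dehydrogenase, was at -0.32 in W303, 0.06 in eS7A-4KR and -0.86 in eS7A-WT at 4 h, none of them called, and with RNA-seq fitted alone it was called lower in eS7A-WT (-0.91). ENO1, the enolase that glucose does not induce, was 0.22 in W303 at 4 h and was not called. Its share of enolase reads was 31.9% there, against 19.4 and 19.6% at 0 h. In eS7A-4KR that share was 37.8 and 38.2% at 4 h, against 32.4 and 32.6% at 0 h, and in eS7A-WT 28.8 and 28.5%, against 19.6%.

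On the way to ethanol the abundant enzymes lost mRNA strongly in W303. PDC1, the main pyruvate decarboxylase, had 21670 and 22990 cpm in the RNA-seq at 0 h, then 16150, 11930 and 5697 at 1, 2 and 4 h. ADH1, the alcohol dehydrogenase that makes ethanol, had 7368 and 7552 cpm at 0 h, then 6530, 5988 and 1774 at 1, 2 and 4 h. PDC1 was lower in each successive library, whereas ADH1 stood well apart from its 0 h libraries only at 4 h. The log2 changes at 4 h were -1.95 ± 0.15 for PDC1 (adjusted p = 2.07e-08) and -2.05 ± 0.14 for ADH1 (adjusted p = 3.94e-09), and PDC5, a back-up decarboxylase, changed by -1.72.

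In eS7A-4KR, ADH1 had 4671 and 4280 cpm in the RNA-seq at 4 h, against 6069 and 6288 at 0 h, and in eS7A-WT 3795 and 3855 at 4 h, against 13800 at 0 h. The log2 changes were -0.41, not called, and -1.80 ± 0.39 (adjusted p = 0.000135). PDC1 was at -0.56 in eS7A-4KR, not called, and at -1.60 ± 0.43 in eS7A-WT (adjusted p = 0.00146), a call that ended without either of the eS7A-WT RNA-seq libraries at 4 h (-1.54 and -1.70). With RNA-seq fitted alone ADH1 (-0.42) and PDC1 (-0.57) were called lower in eS7A-4KR too. ADH2, the alcohol dehydrogenase that consumes ethanol and is repressed by glucose, cannot be read apart from ADH1 here. Its counts were 14.4 to 16.8% of those of ADH1 in every footprint library, 14.7 to 15.2% in the RNA-seq of W303 and 19.7 to 21.6% in that of the eS7A strains. How reads shared by near-identical ORFs were counted is not given in the sources used here, and the values of ADH2 are uncertain for that reason. Other isozymes with a close paralog have the same limit in footprints. In W303, TDH1 counts were 20.1 to 27.3% of TDH3 counts in footprints and 6.93 to 13.4% in RNA-seq. For PDC5 against PDC1 these ranges were 4.01 to 4.4% and 1.64 to 2.02%. ENO1 and PDC6 have close paralogs too. RPS7B, disrupted in both eS7A strains, still had 6.78 to 12.6% of RPS7A counts in their footprints. Whether shared reads add to the TE of these isozymes was not tested.

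At the acetaldehyde branch the isozymes moved in opposite directions. ALD6, the cytosolic aldehyde dehydrogenase that supplies acetate, had 1231 and 1287 cpm in the RNA-seq of W303 at 0 h, then 807.6, 503.5 and 226.6 at 1, 2 and 4 h, the largest called drop of the 33 at 4 h (-2.45 ± 0.13, adjusted p = 1.36e-10). ALD4, the mitochondrial enzyme, had 27.5 and 28.1 cpm at 0 h, then 17.7, 31.9 and 107 at 1, 2 and 4 h (1.97 ± 0.10, adjusted p = 1.19e-11). ALD6 stepped down at every time, while ALD4 was below both untreated libraries at 1 h and above them at 4 h.

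In eS7A-4KR, ALD4 had 605 and 544 cpm in the RNA-seq at 4 h, against 313 and 311 at 0 h, and in eS7A-WT 63.8 and 72 at 4 h, against 40.2 at 0 h. The eS7A-4KR strain was thus far above eS7A-WT both before and after Tm. Both changes were called, at 0.94 ± 0.18 (adjusted p = 0.0002) and 0.80 ± 0.22 (adjusted p = 0.00344), the second not without replicate 2 of the eS7A-WT RNA-seq at 4 h (0.70). Of the reads of both genes, ALD4 took 53.2 and 51.2% in eS7A-4KR at 4 h, against 30.9 and 30.4% at 0 h. In eS7A-WT it took 19.3 and 19.7%, against 3.19%, and in W303 2.19 and 2.14% at 0 h, then 2.14, 5.96 and 32.1% at 1, 2 and 4 h.

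Both glycerol-3-phosphate dehydrogenases, which start glycerol synthesis, also moved apart. GPD1, the isozyme that osmotic stress induces, had 80.5 and 88.5 cpm in the RNA-seq of W303 at 0 h, then 224, 651 and 402 at 1, 2 and 4 h. GPD2, the isozyme that serves redox balance without oxygen, had 288 and 312 cpm at 0 h and 166, 152 and 149 at the later times. GPD1 peaked at 2 h (2.94 ± 0.12) and GPD2 was low at once (-0.87 at 1 h and -0.98 at 4 h). GPD1 held 81.1% of their reads at 2 h, where it had held 21.8 and 22.1% at 0 h.

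In eS7A-4KR GPD1 had 155 and 142 cpm at 4 h, against 97.7 and 93.4 at 0 h. In eS7A-WT it had 450 and 490 cpm at 4 h, against 121 at 0 h. Every 4 h library of eS7A-WT was above every other eS7A library, with changes of 0.69 ± 0.17 in eS7A-4KR (adjusted p = 0.00214) and 2.01 ± 0.21 in eS7A-WT (adjusted p = 2.95e-08). The first call ended when any of the 4 RNA-seq libraries of eS7A-4KR was left out (0.62 to 0.75).

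The hexose transporters gave the sharpest pattern. In W303 HXT3, HXT4, HXT6 and HXT7 were lowest at 2 h and stood higher again at 4 h, while HXT5 rose. HXT3, a low-affinity carrier (YDR345C, chromosome IV, 1162957-1164660), had 577 and 516 cpm in the RNA-seq at 0 h, then 368, 102 and 200 at 1, 2 and 4 h. HXT4 (YHR092C, chromosome VIII, 287081-288811) had 67.3 and 64.4 cpm at 0 h, then 32.8, 7.98 and 15.5 at 1, 2 and 4 h. For both the 2 h library was the lowest, with log2 changes of -2.42 ± 0.13 and -3.05 ± 0.12 (adjusted p = 2.31e-12 for HXT4), and the 4 h library lay between it and the 1 h library.

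HXT6 and HXT7, high-affinity carriers next to each other on chromosome IV (1159608-1161320 and 1154216-1155928), had HXT7 counts of 100 to 107% of HXT6 counts in every library, so they are uncertain as separate genes. HXT6 had 115 and 103 cpm at 0 h, then 72.8, 17.8 and 51.8 at 1, 2 and 4 h in W303. HXT2, another carrier of high affinity, had 344 and 327 cpm at 0 h, then 354, 111 and 327 at 1, 2 and 4 h. It was low at 2 h alone (-1.60 ± 0.12, adjusted p = 1.35e-08) and had returned at 4 h (-0.01). HXT1, the low-affinity carrier induced by high glucose, had 218 and 205 cpm at 0 h, then 117, 146 and 142 at 1, 2 and 4 h. Its called change at 4 h was -0.55, and by total counts it was 0.14. The 7 transporters had a median log2 change of -0.60 at 1 h, -2.42 at 2 h and -1.04 at 4 h, against 0.00, 0.04 and 0.04 for all ORFs, and each later time rests on 1 library per assay.

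After 4 h of Tm these carriers stood on opposite sides of their untreated levels in the eS7A strains. HXT3 had 1053 and 1041 cpm in the RNA-seq of eS7A-4KR at 4 h, against 758 and 757 at 0 h. In eS7A-WT it had 259 and 266 cpm at 4 h, against 948 at 0 h. HXT4 had 142 and 145 cpm in eS7A-4KR at 4 h, against 112 and 113 at 0 h, and 17.8 and 18.1 in eS7A-WT at 4 h, against 82.7 at 0 h. For both genes eS7A-4KR was highest at 4 h and eS7A-WT lowest, with no overlap between times in either strain.

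HXT6 had 502 and 519 cpm in the RNA-seq of eS7A-4KR at 4 h, against 262 and 260 at 0 h. It had 46.4 and 47.3 cpm in eS7A-WT at 4 h, against 167 at 0 h. The change was called upward in eS7A-4KR (1.03 ± 0.19, adjusted p = 0.000112) and downward in eS7A-WT (-1.79 ± 0.23, adjusted p = 8.85e-08). HXT3 and HXT4 were not called in eS7A-4KR in the joint fit (0.53 ± 0.21, adjusted p = 0.0479, and 0.41 ± 0.13, adjusted p = 0.0152) and fell in eS7A-WT (-1.80 ± 0.26, adjusted p = 6.8e-07, and -2.15 ± 0.16, adjusted p = 9.84e-12). With RNA-seq fitted alone both were called higher in eS7A-4KR, at 0.51 and 0.39.

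HXT1 and HXT2 behaved otherwise. HXT2 had 451 and 428 cpm in the RNA-seq of eS7A-4KR at 4 h, against 232 and 236 at 0 h. It had 196 and 198 cpm in eS7A-WT at 4 h, against 128 at 0 h. It rose in both strains, by 0.97 ± 0.17 and 0.67 ± 0.21, the second call ending without any one of 6 eS7A RNA-seq libraries (0.65 to 0.67). HXT1 had 83.6 and 80.5 cpm in eS7A-4KR at 4 h, against 130 and 133 at 0 h, and 222 and 245 in eS7A-WT at 4 h, against 304 at 0 h. It was the one mRNA of the 33 called lower in eS7A-4KR (-0.62 ± 0.16, adjusted p = 0.00299), a call that ended without any one of the 4 RNA-seq libraries of that strain (-0.66 to -0.60).

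**Figure D3:**
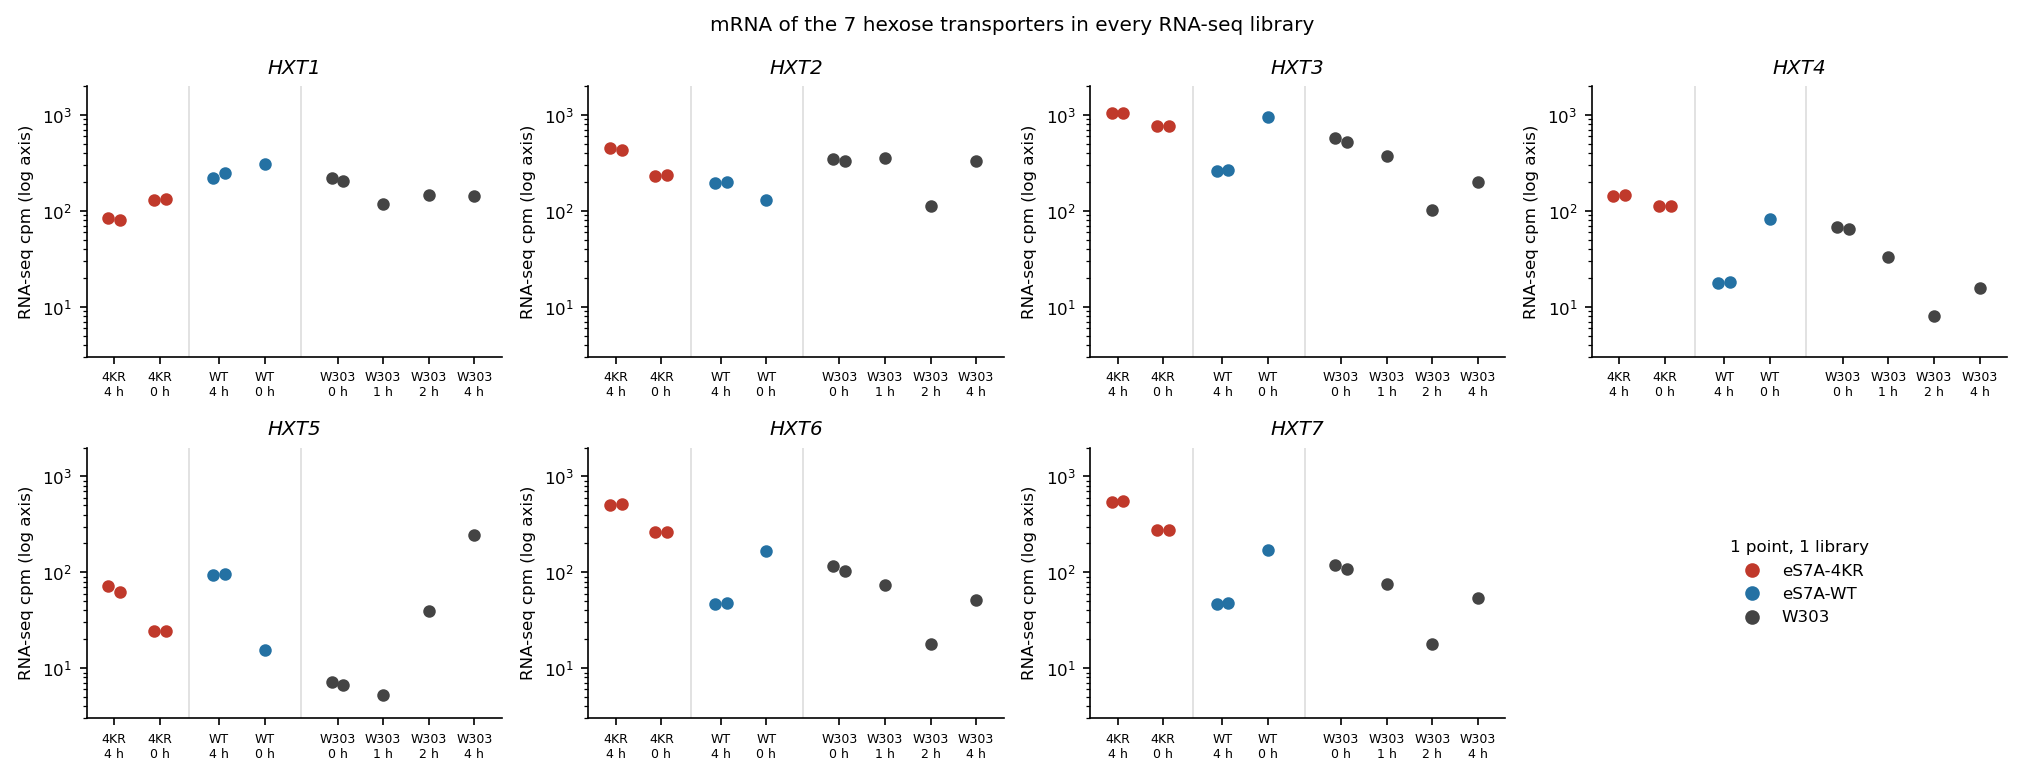
RNA-seq level of HXT1 to HXT7 (vertical log axis, TMM-normalized cpm), with 1 point per library, for eS7A-4KR, eS7A-WT and W303 by hours of Tm. HXT3, HXT4, HXT6 and HXT7 are highest in eS7A-4KR at 4 h and low in eS7A-WT at 4 h and in W303 at 2 h, where HXT6 had 502 and 519, 46.4 and 47.3, and 17.8 cpm.

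HXT5 (YHR096C, chromosome VIII, 294669-296447), a carrier of moderate affinity that is known to rise when growth slows, had the largest mRNA rise of the 33 genes in W303. It had 7.14 and 6.67 cpm in the RNA-seq at 0 h, then 5.27, 39.2 and 247 at 1, 2 and 4 h. The 1 h library was just below both untreated ones, and the 2 h and 4 h libraries were far above them, with log2 changes of 2.50 ± 0.12 and 5.18 ± 0.12 (adjusted p = 4.15e-15 at 4 h). HXT5 took 23.8% of all HXT1 to HXT7 reads at 4 h, where it had taken 0.493 and 0.501% at 0 h. In eS7A-4KR it had 72.3 and 62.4 cpm at 4 h, against 24.5 and 24.3 at 0 h, and in eS7A-WT 94.7 and 96.1 at 4 h, against 15.5 at 0 h. The rises were 1.52 ± 0.13 (adjusted p = 1.04e-09) and 2.67 ± 0.16 (adjusted p = 1.17e-12).

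Ribosome footprints of HXT5 rose less than its mRNA. HXT5 had 29.8 and 24.5 cpm of footprints in W303 at 0 h, then 19.8, 49.8 and 296 at 1, 2 and 4 h, a rise of 3.45 ± 0.13 at 4 h. Its TE fell by 1.62 ± 0.19 at 2 h (adjusted p = 7.3e-05) and by 1.73 ± 0.17 at 4 h (adjusted p = 1.24e-05), and was -0.07 at 1 h. It was the one TE change called among the 33 at 2 h, when 2.32% of all ORFs were called, and at 4 h, when 3.95% were. With no filter on low counts these calls were lost at the same size (-1.64 and -1.74). Relative to the median ORF, the log2 TE of HXT5 was 1.99 in W303 at 0 h, then 1.92, 0.42 and 0.28 at 1, 2 and 4 h.

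In the eS7A strains HXT5 had 59.6 and 59 cpm of footprints in eS7A-4KR at 4 h, against 25.7 and 23.6 at 0 h, and 89.3 and 99.6 in eS7A-WT at 4 h, against 33.4 and 47.3 at 0 h. The footprint changes were 1.27 ± 0.13 in both strains. The TE change was -0.25 ± 0.18 in eS7A-4KR (adjusted p = 0.726) and -1.40 ± 0.20 in eS7A-WT (adjusted p = 4.63e-05), where 4.41% of all ORFs were called. The difference between these TE changes was 1.16 ± 0.27 (adjusted p = 0.0278), not called. With the replicate number as a block inside each assay it was called (adjusted p = 0.000886). In untreated cells the TE of HXT5 in eS7A-4KR was below that in eS7A-WT (-1.30 ± 0.21, adjusted p = 0.000429), and at 4 h the strains differed by -0.14 ± 0.18 (adjusted p = 0.686). By total counts the TE change in eS7A-WT was -1.17 and the difference at 0 h -0.70, and neither was called. The authors kept other footprint lengths in eS7A-WT at 0 h than at 4 h, and others again in eS7A-4KR. Whether the lengths kept add to the TE change in eS7A-WT or to the TE differences between the strains was not tested.

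**Figure D4:**
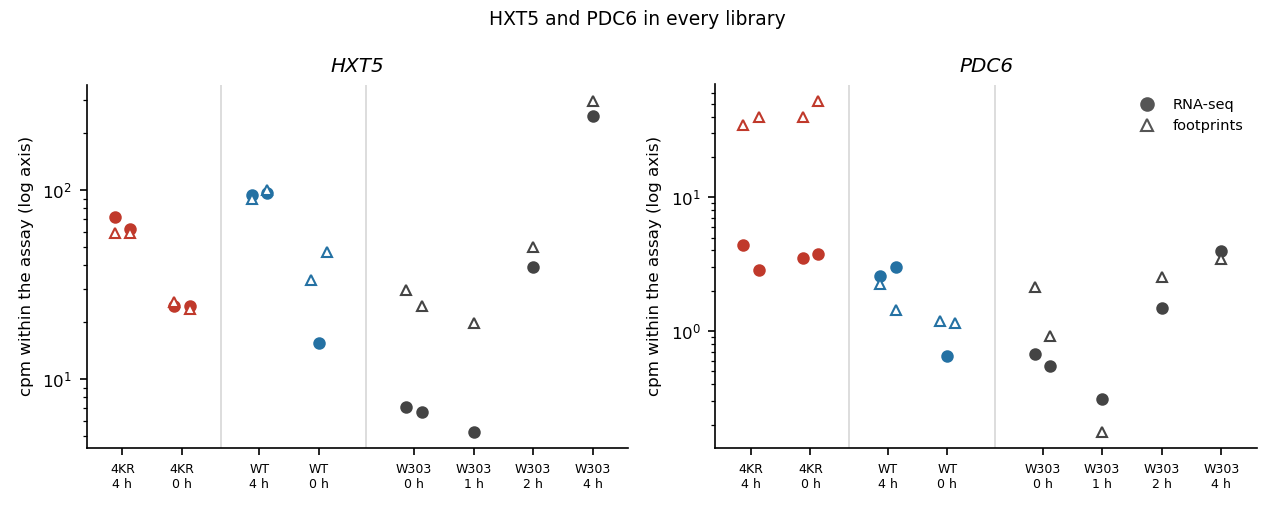
Levels of HXT5 and PDC6 (vertical log axis, TMM-normalized cpm within each assay) in every RNA-seq library (circles) and footprint library (triangles), by strain and hours of Tm. HXT5 footprints stood well above RNA-seq only in W303 at 0 and 1 h and in eS7A-WT at 0 h, and PDC6 footprints of eS7A-4KR lay between 34.7 and 52.3 cpm while no other footprint library passed 3.46.

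For nearly all other members footprints followed mRNA. The TE change was under 0.5 log2 units in either direction for 33 of 33 genes in eS7A-4KR at 4 h, for 31 in eS7A-WT at 4 h and for 31, 31 and 30 in W303 at 1, 2 and 4 h. None of the 33 had a called TE change in W303 at 1 h (0.0927% of all ORFs were called), in eS7A-4KR at 4 h (0.9%) or in the difference between the responses (0.63%). By an unadjusted p under 0.05 in edgeR's test these counts were 1, 0 and 1, and DESeq2 called 0 in each. Neither has a replicate term, and a block by replicate number inside each assay called HXT5 in the difference (1.11). On simulated counts the test recovered 65 of 100 TE changes of 1 log2 unit in W303 at 4 h and 54 of 100 in eS7A-WT at 4 h. TE changes of 1 unit or less may thus be missed. The TE contrasts without a call were not themselves simulated. TDH1, with the highest TE value of the 33 in untreated W303, had TE changes of -0.59, -0.60 and -0.76 at 1, 2 and 4 h, none of them called. These values are uncertain, since TDH1 counts were 20.1 to 27.3% of TDH3 counts in W303 footprints and 6.93 to 13.4% in RNA-seq. Whether footprints shared with its paralogs add to them was not tested.

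**Figure D5:**
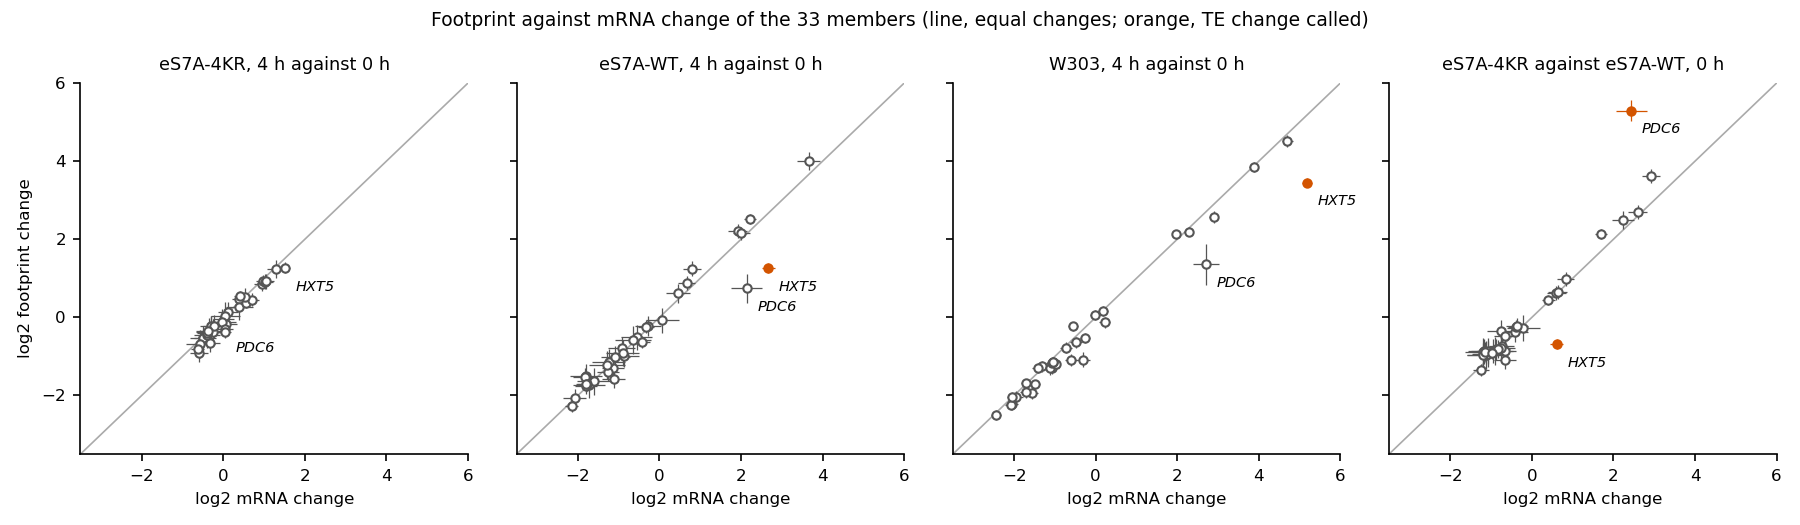
log2 footprint change (vertical) against log2 mRNA change (horizontal) of the 33 genes, with SE bars, for eS7A-4KR, eS7A-WT and W303 at 4 h of Tm against 0 h and for eS7A-4KR against eS7A-WT at 0 h. Points on the line changed equally in both assays, and filled orange points had a called TE change, as HXT5 did in W303 with 3.45 in footprints and 5.18 in mRNA.

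PDC6 had called TE differences between the eS7A strains. This decarboxylase gene (YGR087C, chromosome VII, 651290-652981) is known to be made under sulfur limitation and is barely expressed otherwise. Its footprints numbered 969 and 848 counts in eS7A-4KR at 0 h (40 and 52.3 cpm), against 31 and 18 counts in eS7A-WT (1.19 and 1.15 cpm). At 4 h they were 558 and 745 counts in eS7A-4KR (34.7 and 39.8 cpm), against 32 and 12 in eS7A-WT (2.24 and 1.44 cpm). The strains were far apart in every footprint library. The authors kept other footprint lengths in eS7A-4KR than in eS7A-WT, and PDC6 is a paralog of the abundant PDC1. PDC6 counts were 0.19 to 0.269% of PDC1 counts in the footprints of eS7A-4KR and 0.00228 to 0.0202% in those of eS7A-WT. Whether the lengths kept or shared reads add to the difference was not tested.

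PDC6 mRNA differed less. It had 130 and 147 RNA-seq counts in eS7A-4KR at 0 h (3.51 and 3.75 cpm), against 26 in eS7A-WT (0.65 cpm). At 4 h it had 135 and 113 counts (4.38 and 2.86 cpm), against 125 and 166 (2.57 and 3 cpm), so the strains overlapped. The TE of PDC6 was higher in eS7A-4KR by 2.86 ± 0.47 at 0 h (adjusted p = 0.00114) and by 3.93 ± 0.36 at 4 h (adjusted p = 1.44e-08), where 2.41% and 4.62% of all ORFs were called. The call at 0 h was lost under edgeR's newer quasi-likelihood method (2.83). In eS7A-4KR the log2 TE of PDC6 stood 3.31 above the median ORF at 4 h, against 3.62 at 0 h, and both placed it at the 99.9th percentile. In W303 its counts were 1 to 19 footprints and 9 to 165 RNA-seq reads, and its mRNA rose by 2.71 ± 0.33 at 4 h (adjusted p = 3.16e-07). Its TE changes with Tm, at few counts, were -1.93, -0.36 and -1.35 in W303 at 1, 2 and 4 h, -0.33 in eS7A-4KR and -1.40 in eS7A-WT, none of them called. With the replicate number as a block inside each assay, TE differences between the eS7A strains were also called for PFK1 (-0.41) and ALD4 (0.68) at 0 h and for PFK2 (-0.39) and HXT1 (-0.37) at 4 h.

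Before Tm the strains with and without the lysines already differed, in these genes and over all ORFs. In the joint fit the share of these mRNAs called was below that over all ORFs. Of the 33 mRNAs 11 were called between eS7A-4KR and eS7A-WT at 0 h, 7 higher and 4 lower, where 42.2% of all ORFs were called. The median log2 difference was -0.66, against -0.01 for all ORFs, and 10 of the 33 values were above 0. HXK1 (2.59 ± 0.23, adjusted p = 2.49e-08), GLK1 (2.24 ± 0.28), PYK2 (1.69 ± 0.15), PDC6 (2.43 ± 0.38) and ALD4 (2.91 ± 0.22, adjusted p = 3.39e-09) were higher in eS7A-4KR. HXT1 was lower (-1.25 ± 0.19, adjusted p = 7.85e-06), as was GPD2 (-0.99 ± 0.19, adjusted p = 9.13e-05).

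These differences at 0 h rest on a single RNA-seq library of eS7A-WT, in which the 33 genes took 15.1% of reads, the most of any RNA-seq library and against 7.68 and 7.95% in eS7A-4KR at 0 h. The count of calls moved with the fit. It was 24 by DESeq2, 32 with RNA-seq fitted alone (10 higher and 22 lower, with 58.5% of all ORFs called) and 7 without either RNA-seq replicate of eS7A-4KR at 0 h. With TMM over all libraries of both assays together it was 13, 10 higher and 3 lower, and by total counts 8 higher and 21 lower. The footprints, with 2 libraries in each group, gave 16 calls, 9 higher and 7 lower, where 53% of all ORFs were called, among them HXK1 (2.70 ± 0.19), GLK1 (2.49 ± 0.23), PYK2 (2.14 ± 0.13), ALD4 (3.62 ± 0.18), HXT1 (-1.35 ± 0.16) and PFK1 (-1.09 ± 0.22).

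After 4 h of Tm 13 mRNAs were called between the strains, 8 higher and 5 lower in eS7A-4KR, where 49.7% of all ORFs were called. The transporters made up 5 of the 8, with HXT7 (3.49 ± 0.19, adjusted p = 9.34e-13) and HXT6 (3.41 ± 0.19) furthest apart, then HXT4 (2.96 ± 0.14), HXT3 (1.96 ± 0.21) and HXT2 (1.13 ± 0.17). ALD4 (3.05 ± 0.18), HXK1 (1.06 ± 0.19) and ALD6 (0.88 ± 0.23) were the others. HXT6 and HXT7 are uncertain as separate genes, so their calls may repeat the same signal. ALD6 had 531.9 and 517.5 cpm in eS7A-4KR, against 265.8 and 292.7 in eS7A-WT, and lost its call without any one of the 4 h RNA-seq libraries (0.81 to 0.94). Lower in eS7A-4KR were GPD1 (-1.70 ± 0.17, adjusted p = 1.25e-08), HXT1 (-1.54 ± 0.16, adjusted p = 1.94e-08), HXK2 (-1.07 ± 0.25), HXT5 (-0.54 ± 0.12) and GPD2 (-0.54 ± 0.15). HXT5 was not called without replicate 2 of the eS7A-4KR RNA-seq at 4 h (-0.44), nor HXK2 without either of those replicates (-1.05 and -1.09), nor GPD2 without any 4 h RNA-seq library (-0.58 to -0.51). By total counts the split was 8 higher and 20 lower.

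The response to Tm itself differed between the strains for 12 of the 33 mRNAs, where 34.8% of all ORFs were called. The difference of the log2 changes, eS7A-4KR minus eS7A-WT, was above 0 for HXT7 (2.86 ± 0.30, adjusted p = 1.83e-08), HXT6 (2.81 ± 0.29), HXT4 (2.56 ± 0.21), HXT3 (2.33 ± 0.34), ALD6 (1.71 ± 0.36) and ADH2 (1.42 ± 0.38). It was below 0 for GLK1 (-2.35 ± 0.36, adjusted p = 1.24e-05), PDC6 (-2.11 ± 0.43), PYK2 (-1.66 ± 0.19), HXK1 (-1.53 ± 0.29), GPD1 (-1.32 ± 0.27) and HXT5 (-1.15 ± 0.20). The median over the 33 was 0.67, against -0.04 for all ORFs, and 25 of the 33 values were above 0. ADH2, which cannot be read apart from ADH1 (1.40 ± 0.50, adjusted p = 0.0224, not called), lost its call when any of the 6 replicated eS7A RNA-seq libraries was left out (1.39 to 1.45). The calls of HXT6 and HXT7, uncertain as separate genes, may repeat the same signal.

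With RNA-seq fitted alone 27 were called, 21 with a difference above 0 and 6 below, where 49.8% of all ORFs were called, and by total counts the split was 13 and 8. In footprints, which do not use the single RNA-seq library, 10 were called, 6 above 0 and 4 below, where 43.9% of all ORFs were called. HXT4 (2.82 ± 0.19), HXT7 (2.64 ± 0.27), HXT6 (2.62 ± 0.26), HXT3 (2.29 ± 0.30), ALD6 (1.73 ± 0.32) and ADH2 (1.13 ± 0.34) were above 0. GLK1 (-2.77 ± 0.32), PYK2 (-2.15 ± 0.17), HXK1 (-1.74 ± 0.26) and GPD1 (-1.69 ± 0.24) were below. HXT5 was at 0.01 ± 0.18 and PDC6 at -1.04 ± 0.40 (adjusted p = 0.0328) in footprints, neither called.

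At 0 h most of these mRNAs stood higher in the tagged, plasmid-borne eS7A-WT than in W303, and the number called depended on the fit. The mRNA was called for 6 of the 33, 5 higher and 1 lower in eS7A-WT, where 13.6% of the 5526 ORFs were called, and 27 of the 33 values were above 0 (median 0.53, against -0.001 for all ORFs). HXT2 was lower, with 128 cpm in the RNA-seq of eS7A-WT, against 344 and 327 in W303 (-1.44 ± 0.18, adjusted p = 3.04e-06). ADH2 (1.25 ± 0.25), HXK1 (1.20 ± 0.19), HXT5 (1.12 ± 0.17), GLK1 (1.00 ± 0.24) and PYK2 (0.74 ± 0.15) were higher, GLK1 not without replicate 1 of the W303 RNA-seq at 0 h (0.86). The value of ADH2 is uncertain as above, and ADH1 was at 0.84, not called. No TE difference was called by edgeR or DESeq2, with 1.21% of all ORFs called and 3 of the 33 at an unadjusted p under 0.05. In footprints 4 were higher and 1 lower, where 8.36% of all ORFs were called. With RNA-seq fitted alone 23 mRNAs were called, where 27.2% of all ORFs were, and by total counts 15 were higher and 1 lower.

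The remaining enzymes of the pathway were counted from a list of 25 genes for side isozymes, regulators of phosphofructokinase, acetate and glycerol metabolism. In W303 at 4 h 22 of them were tested for mRNA, with 10 higher and 7 lower, where 73.6% of all ORFs were called. The largest rises were GPM2, a paralog of phosphoglycerate mutase (4.31 ± 0.16), and GUT2, the mitochondrial glycerol-3-phosphate dehydrogenase (3.37 ± 0.13). The largest falls were GPP1 (-2.15 ± 0.13) and ADH5 (-1.74 ± 0.13). GPP1 and GPP2 encode the glycerol-3-phosphatases that complete glycerol synthesis, and GPP2 rose at 1, 2 and 4 h by 1.31, 3.65 and 2.70.

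In the eS7A strains all 25 were tested, with 10 higher and 3 lower in eS7A-4KR at 4 h (30.9% of all ORFs were called) and 12 higher and 5 lower in eS7A-WT (59.7%). GPM2 changed by 1.09 in eS7A-4KR and 3.36 in eS7A-WT, and GPP2 by 0.46 and 1.95. Side isozymes with a called TE change included ADH4, an alcohol dehydrogenase, at 1.87 ± 0.19 and 1.97 ± 0.20 in W303 at 2 and 4 h and 1.66 ± 0.26 in eS7A-WT at 4 h. The TE of ADH4 in eS7A-4KR was below that in eS7A-WT at 0 h (-1.44 ± 0.30) and at 4 h (-3.04 ± 0.28). ACS1, the acetyl-CoA synthetase used on non-fermentable carbon, had a TE higher in eS7A-4KR by 1.71 ± 0.40 at 0 h and 2.88 ± 0.31 at 4 h. Footprint lengths kept differed between these eS7A groups, and whether that adds to the TE values of ADH4 and ACS1 was not tested.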

How the data were processed

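Ribosome profiling libraries were made with RNase I, and RNA-seq libraries from rRNA-depleted total RNA with a stranded kit. The submitters' processing notes name CASAVA 1.8, Bowtie2 2.0.6 and TopHat2 2.0.7. The authors removed duplicate footprints by random barcodes, kept length ranges that differed between groups, which can move footprint counts between them, and placed each footprint by its A-site codon. Each file deposited by the authors gives unnormalized counts per ORF of 1 library. Beside the counts, the deposited tables have a column of unit other with the codons counted per ORF (10 fewer for RNA-seq than for footprints) and served as gene length. ORFs were named from the RefSeq annotation of R64 (6008 of 6696 matched), which also gave the coordinates.

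Changes were tested with edgeR 4.0.16 under R 4.3.3 (glmQLFit and glmQLFTest), with TMM within each assay, 1 group per strain, time and assay, no replicate term and Benjamini-Hochberg adjustment over all ORFs kept. The fits covered 10 W303 libraries (5392 ORFs), 15 eS7A libraries (5558) and all 25 (5526, for eS7A-WT against W303). Printed cpm used TMM over the 25 libraries. Each SE is a Wald error multiplied by the root of the quasi-likelihood dispersion, and the method was tested on simulated data. DESeq2 1.42.0 and the other settings below were alternatives. Shares have Wilson 95% intervals from statsmodels 0.14.6. Footprint libraries had a median of 10611458 counts, and the shallowest, with 3423907, was that of W303 at 4 h.

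The members and lists were chosen with earlier results of these data known. Values in every library were to be given for the HXT genes, for isozyme sets with a called change and for the 3 largest called rises and falls per contrast. For the other lists, the called genes with the 2 largest rises and falls could be named. Promoter motifs were not searched.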

Additional observations from a re-analysis of the deposited data

Results flagged for a closer look

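For 12 of the 33 genes, where 34.8% of all ORFs were called, the response to Tm differed between the eS7A strains by the test of the difference itself, edgeR's quasi-likelihood interaction contrast of the mRNA changes, given as the log2 change in eS7A-4KR minus that in eS7A-WT. The hexose transporters HXT3 (2.33), HXT4 (2.56), HXT6 (2.81) and HXT7 (2.86), the aldehyde dehydrogenase ALD6 (1.71) and ADH2 (1.42) had values above 0. HXT6 and HXT7 are uncertain as separate genes, and ADH2 cannot be read apart from ADH1. HXK1 (-1.53), GLK1 (-2.35), PYK2 (-1.66), PDC6 (-2.11), HXT5 (-1.15) and GPD1 (-1.32) had values below 0. All 12 rest on the one RNA-seq library that untreated eS7A-WT had, and in footprints, with 2 libraries there, HXT5 (0.01) and PDC6 (-1.04) were not called while the other 10 were.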

How the results depend on the processing

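Of 143 called mRNA and TE changes of single genes, 95 kept their call under every alternative and 114 in every fit with a library left out. By total counts without TMM 3 changes in W303 at 4 h turned: GPM1 (0.0905), HXT1 (0.14) and PGK1 (0.21), since that scaling moved the median of all ORFs to 0.73. Among the counts of mRNAs called, the difference between responses (12) was 21 by total counts and 27 with RNA-seq fitted alone, and eS7A-4KR at 4 h (9) was 17 and 26. eS7A-4KR against eS7A-WT at 0 h (11) was 26 at a threshold of 0.05, 29 by total counts, 17 with all 25 libraries, 32 with RNA-seq alone and 24 by DESeq2. At 4 h the same comparison (13) was 28 by total counts. eS7A-WT against W303 (6) was 13 at 0.05, 16 by total counts and 23 with RNA-seq alone, and W303 at 1 h (15) was 9 with no filter and 8 with all 25 libraries. For TE, the difference between responses (0) was 1 at 0.05, and eS7A-4KR against eS7A-WT was 27 by total counts and 1 by the newer quasi-likelihood method at 0 h (2) and 7 by total counts at 4 h (1). eS7A-WT against W303 (0) was 1 by total counts, and W303 at 2 and 4 h (1 each) was 0 with no filter.

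With 1 library left out, the mRNA counts ranged 11 to 12 (difference), 6 to 10 (eS7A-4KR), 7 to 14 (eS7A-4KR against eS7A-WT at 0 h), 9 to 13 (at 4 h), 17 to 24 (eS7A-WT), 5 to 7 (eS7A-WT against W303) and 12 to 17, 18 to 21 and 25 to 29 (W303 at 1, 2 and 4 h). The TE counts ranged 0 to 1 for the difference, with 1 without replicate 1 of the eS7A-WT footprints at 0 h, and 1 to 2 in W303 at 4 h, with 2 without replicate 2 of the untreated RNA-seq.

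Deviations of same-numbered eS7A libraries correlated across 5526 genes, which are not independent, at 0.473 to 0.638 within footprints and at -0.341 to 0.0306 within RNA-seq. Same-numbered footprint libraries thus varied together. In RNA-seq the 4 h libraries of eS7A-WT and eS7A-4KR varied in opposite directions (-0.341), and the other pairs were near 0 (0.00749 and 0.0306). The main fit has no replicate term, so this shared footprint variation stays in its spread. The block within each assay, below, allows for it. A replicate block by number gave 22 mRNAs at 0 h and 1 TE change in the difference, as did a block by culture for the latter. A block within each assay, chosen after seeing the data, gave 26 (difference), 25 (eS7A-4KR) and 32 (0 h) for mRNA and 1, 4 and 3 TE calls (difference, 0 h and 4 h). With the numbers of eS7A-4KR at 4 h crossed in RNA-seq these were 27, 26 and 32 and 1, 5 and 5, with 1 TE call in eS7A-4KR and 2 in eS7A-WT.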

Other observations

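Among 18 regulators of glycolytic and HXT genes, CAT8 and ADR1, which activate glucose-repressed genes, had the largest rises in W303 at 4 h. CAT8 mRNA changed by 1.27 ± 0.16, 2.58 ± 0.15 and 3.81 ± 0.14 in W303 at 1, 2 and 4 h, by 1.37 ± 0.14 in eS7A-4KR and by 3.06 ± 0.19 in eS7A-WT at 4 h. ADR1 changed by 3.38 ± 0.13 in W303 at 4 h, by 1.53 ± 0.16 in eS7A-4KR and by 4.07 ± 0.20 in eS7A-WT. The responses differed between the eS7A strains for both, by -1.69 ± 0.24 (CAT8) and -2.54 ± 0.26 (ADR1). In W303 at 4 h 5 of the 18 were higher and 5 lower, where 73.6% of all ORFs were called, the lowest being YCK2 (-1.25 ± 0.10) and RAP1 (-1.24 ± 0.09), and at 2 h the repressor MIG1 was at -1.55 ± 0.12 and MTH1 at -1.63 ± 0.24.

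Between eS7A-4KR and eS7A-WT, 8 of the 18 regulators were higher at 0 h and 1 lower, where 42.2% of all ORFs were called, and 8 were higher at 4 h and 2 lower, where 49.7% were. MTH1, a co-repressor of HXT genes, was at 2.49 ± 0.13 at 4 h. RGT1, the repressor that binds HXT promoters, had mRNA higher by 2.12 ± 0.17 at 0 h and 1.74 ± 0.14 at 4 h, with TE differences of -2.69 ± 0.24 and -2.44 ± 0.22. Whether the footprint lengths kept, which differed between the strains, add to these TE differences was not tested. Of 13 further hexose transporters and glucose sensors 12 were in the files, and 2 passed the filter in W303 and 5 in the eS7A strains. The sensor RGT2 had mRNA changes of -0.82, -0.58 and -0.72 in W303 at 1, 2 and 4 h, each called, and HXT9 rose in eS7A-WT (1.18 ± 0.33).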
